A study of Mus musculus with 96 samples.

Results

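GATA6 binding regions that were strongly occupied in extra-embryonic endoderm (XEN) cells and had little or no GATA6 after 8 h of induction were examined. They were selected on 2 measured values, at least 6 RPM of GATA6 in XEN cells and at most 1 RPM at 8 h, RPM being reads scaled to the depth of the library. Of 42403 GATA6 regions 1446 met this rule, or 3.41%. The 8 h and XEN GATA6 values are given as a description, without a test. Beside them stand the other strong XEN regions, with 6 RPM or more in XEN cells and over 1 RPM at 8 h (3917 regions), the 2164 of these that were closed in embryonic stem (ES) cells, and the reverse pattern, 1422 regions with 6 RPM or more at 8 h and at most 1 RPM in XEN cells.

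GATA6 is a zinc finger transcription factor that recognizes GATA sequences and specifies the primitive endoderm (PrE), the layer of the blastocyst that gives rise to the yolk sac. SOX17 is an HMG box factor of the same lineage, while OCT4, SOX2 and ESRRB are pluripotency transcription factors (PTFs) of ES cells. Factors that can engage their DNA motif in closed chromatin are called pioneer factors, and GATA, SOX and FOXA proteins are among the best known of them.

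Chromatin immunoprecipitation with sequencing (ChIP-seq) was done on KH2 ES cells of mixed C57BL/6 x 129/Sv background that carry a doxycycline (Dox)-inducible Gata6 cassette. Several clones were kept, the siRNA experiment used a single clone, and the clone of the time course is not stated in the sources used here. Samples were collected from uninduced cells and at 8 h, at 16 h and on days 1, 2 and 4 of 1 µg/mL Dox, with antibodies to GATA6, SOX17, OCT4, SOX2 and ESRRB and with input chromatin. Untreated X10 XEN cells of CD1 background, which carry no cassette, were profiled for all but ESRRB, and cells given Dox with an Oct4 or a control siRNA were profiled for GATA6 and SOX17 at day 2. ES and XEN cells grew on mouse embryonic fibroblast feeders, most of which were removed by adsorption before fixation, and LIF was left out for XEN cells. The time course and the XEN cells differ in line and strain, and in input over some chromosomes, as well as in state. These cannot be told apart in any comparison between them.

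One value per condition was deposited, as a rule over several libraries, and the steps between low values allowed the reads of single libraries to be recovered in 40 of 45 columns (4 as 1 library and 36 as 2). Library depth was 5.42 M to 69.4 M reads, with a median of 15.3 M. At 8 h the deeper GATA6 library had 69.4 M reads and the shallower 11.5 M, so that 1 read was worth 0.0144 and 0.0873 RPM, and the limit of 1 RPM lay well above the level of single reads. The study's methods describe separate chromatin preparations for most conditions. Which labelled replicate a recovered library is could not be told, so p-values measure the spread between recovered libraries only. GATA6 and SOX2 at day 4 and XEN input have 3 labelled libraries and 2 recovered ones, and ESRRB at 8 h and SOX17 at 16 h have 2 labelled and 1 recovered. The lowest recovered value was 1 read in each library, as if 1 read had been added to each region. For GATA6 before Dox 1 read was 0.163 RPM, so that its median at these regions would be 0.327 RPM without that read, in place of 0.490 RPM.

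Sequences around the GATA6 summit are shown for 6 of the regions, because GATA and SOX matches at the summit differed between them. Each is a window of 201 bases on the plus strand of GRCm38 (mm10). The first 3 had the highest GATA6 in XEN cells: an intergenic region 29.0 kb from the start site of Thpo (chr16:20763417-20763617), a region in an intron of Wars (chr12:108887048-108887248) and an intergenic region 57.5 kb from Klf8 (chrX:153416986-153417186). Tnpo1 names the intergenic region with the highest day 4 level relative to XEN cells (chr13:98945963-98946163). Xxylt1 (intergenic, chr16:30926140-30926340) and Cntn4 (intron, chr6:105918325-105918525) name regions with XEN binding and almost none at day 4. Capitals mark either of the GATA words, which are AGATAA with its variant TGATAA, or the SOX word, which is CATTGT, on either strand.
Thpo: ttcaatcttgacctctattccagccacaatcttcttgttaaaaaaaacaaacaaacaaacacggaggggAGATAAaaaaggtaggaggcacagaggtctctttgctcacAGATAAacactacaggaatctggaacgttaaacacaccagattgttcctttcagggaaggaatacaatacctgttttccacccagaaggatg
Wars: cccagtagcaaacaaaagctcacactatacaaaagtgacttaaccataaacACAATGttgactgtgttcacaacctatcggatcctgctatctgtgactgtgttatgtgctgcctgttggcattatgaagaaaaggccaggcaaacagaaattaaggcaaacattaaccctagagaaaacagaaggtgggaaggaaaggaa
Klf8: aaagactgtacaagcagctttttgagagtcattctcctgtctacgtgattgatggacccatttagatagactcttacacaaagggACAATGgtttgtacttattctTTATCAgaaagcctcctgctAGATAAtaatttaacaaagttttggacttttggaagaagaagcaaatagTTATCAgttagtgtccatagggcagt
Tnpo1: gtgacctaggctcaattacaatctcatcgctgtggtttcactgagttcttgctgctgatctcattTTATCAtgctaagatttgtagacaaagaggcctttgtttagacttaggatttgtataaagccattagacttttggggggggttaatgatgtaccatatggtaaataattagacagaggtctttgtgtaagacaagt
Xxylt1: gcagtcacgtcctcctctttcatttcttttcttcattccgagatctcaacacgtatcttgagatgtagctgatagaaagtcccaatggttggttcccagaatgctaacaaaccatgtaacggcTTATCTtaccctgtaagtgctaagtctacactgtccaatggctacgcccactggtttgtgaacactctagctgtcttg
Cntn4: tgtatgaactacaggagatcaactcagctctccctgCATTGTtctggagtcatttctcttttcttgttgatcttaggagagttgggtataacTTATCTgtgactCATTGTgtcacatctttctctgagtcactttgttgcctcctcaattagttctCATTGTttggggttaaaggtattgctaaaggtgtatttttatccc

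The window of the Klf8 region held 3 GATA words and 1 SOX word, and that of Cntn4 held 1 GATA word and 3 SOX words. No GATA word lay in the window of the Wars region, which had 1 SOX word and the second highest GATA6 in XEN cells. Over all 1446 regions, 73.2% of windows held a GATA word, against 71.4% of all 42403 windows and 89.2% of the closed strong XEN regions above 1 RPM at 8 h. The SOX word was found in 37.5% of the windows, against 23.0% of all windows and 33.0% of those closed regions. The octamer ATTTGCAT, which is read by OCT4, was found in 0.415% of the windows, against 2.997% of all windows and 7.52% of the regions strong at 8 h and absent in XEN cells. Words were searched on both strands, and a match is not evidence of a bound site.

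The word TGTTTAC, a core read by FOX factors, was present in 207 windows (14.3%). It was found in 6.16% of all windows, in 7.99% of the closed strong XEN regions above 1 RPM at 8 h and in 4.22% of the regions of the reverse pattern. TGTTTAC can share bases with CATTGT, and did so in 11 of the 207 windows, so that 13.6% held it apart from the SOX word, against 5.86% of all windows. Base composition differed little, with a median GC content of 44.3% against 45.3% over all regions. Regions with and without the word had median GATA6 levels at day 4 of 4.89 and 4.43 RPM, and in XEN cells of 8.55 and 8.65 RPM. FOX binding was not measured in these libraries. The AP-1 word TGANTCA (13.5% against 10.7% of all windows), the TEAD word GGAATG (17.4% against 18.8%) and the ESRRB word AAGGTCA (4.56% against 7.06%) lay closer to the share over all regions. No test was run on these shares.

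**Figure D1:**
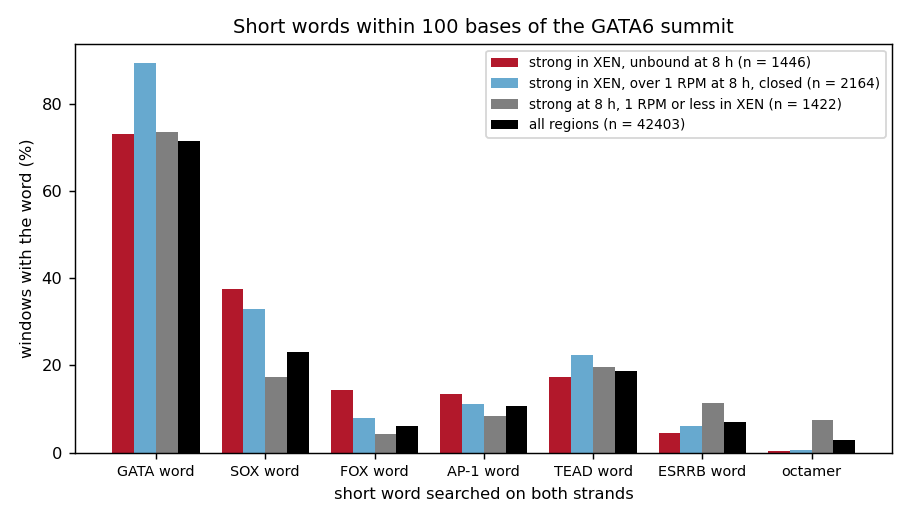
Share of 201-base windows around the GATA6 summit (vertical axis, percent) that hold each short word on either strand, for 4 groups of regions (bars). The FOX word stands at 14.3% in the 1446 regions and between 4.22% and 7.99% in the other groups, while the GATA word stands at 73.2% in them and 71.4% in all regions.

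Motif scores were also deposited for whole regions. Intervals of shares treat regions as independent draws and do not cover the spread between libraries. GATA6 motifs rated high or mid were found in 60.9% of the regions (95% Wilson interval 58.4% to 63.4%), next to 59.8% of all regions and 85.2% of the closed strong XEN regions above 1 RPM at 8 h. High GATA6 motifs alone were held by 21.02% of the regions, below the 26.8% over all regions. For SOX17 motifs of the same ratings the share was 61.9% (59.4% to 64.4%), next to 42.6% of all regions and 66.7% of those closed regions. The best SOX17 motif lay within 50 bp of the GATA6 summit in 26.4% of the regions, against 20.0% of all regions and 17.8% of the closed strong XEN regions above 1 RPM at 8 h. For the best GATA6 motif the corresponding shares were 38.9%, 44.8% and 45.2%. Motifs per kb, which take the width into account, were 3.9996 for GATA6 and 2.62 for SOX17, against 4.04 and 2.21 over all regions. At those closed regions they were 4.09 and 2.23. The regions had a median width of 742.5 bases, above the 525 bases of all regions and below the 1079 bases of those closed regions. Any share over a whole region, and the distance of a best motif from the summit, therefore also depends on how much sequence is counted.

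In ES cells before Dox the regions were mostly closed. The authors' accessibility class was closed for 94.3% (92.9% to 95.3%), moderate for 71 regions and accessible for 12, whereas 61.3% of all regions and 55.2% of the other strong XEN regions were closed. By histone marks, 42.0% were in the class called naive and 37.1% in facultative heterochromatin. These shares were 17.996% and 22.3% over all regions, and 36.6% and 28.8% at the closed strong XEN regions above 1 RPM at 8 h. Active enhancers made up 0.692% of the regions and promoters 1.04%, against 11.2% and 6.88% of all regions, and 0.786% and 0.139% of the closed strong XEN regions above 1 RPM at 8 h. Within 1 kb of an annotated start site lay 2.56% of the regions (6.56% of all), 49.3% lay in introns, 46.6% between genes and 1.52% in exons. The median distance to the nearest protein-coding start site was 31.0 kb, against 25.7 kb over all regions.

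GATA6 at the 1446 regions had medians of 0.490 RPM before Dox, 0.571 RPM at 8 h, 0.871 RPM at 16 h, 1.099 RPM at day 1, 1.42 RPM at day 2, 4.50 RPM at day 4 and 8.65 RPM in XEN cells. The other strong XEN regions had 4.14 RPM at 8 h, 5.45 RPM at day 2 and 8.24 RPM at day 4 (medians). The term unbound is not exact for each region. Input at 8 h had a median of 0.461 RPM, the median ratio of 8 h GATA6 to input was 1.18, and 180 regions (12.4%) had at least 2 times their 8 h input. At the other strong XEN regions this share was 88.9%.

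**Figure D2:**
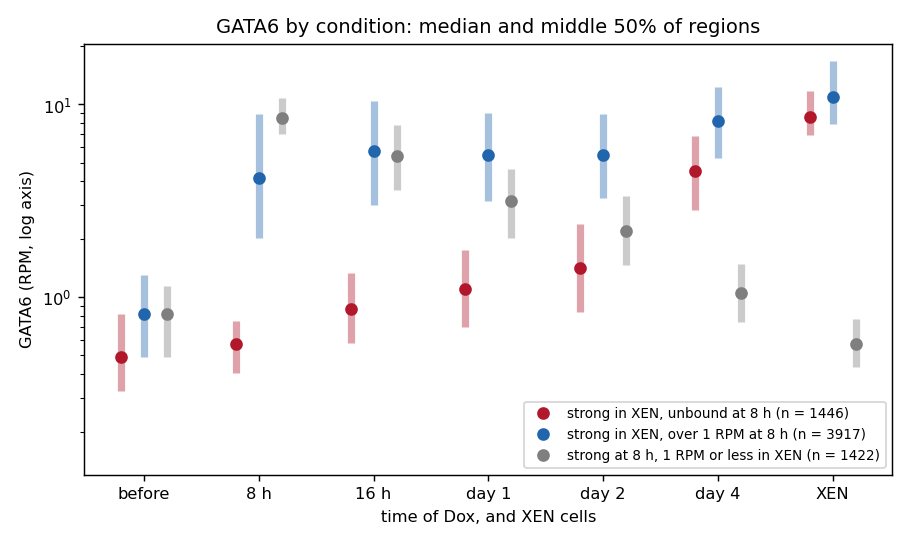
Median GATA6 (points, RPM on a log axis) and the middle 50% of regions (bars) before Dox, at 5 times of Dox and in XEN cells, for 3 groups of regions. The 1446 regions go from 0.571 RPM at 8 h to 4.50 RPM at day 4 and 8.65 RPM in XEN cells, while the 1422 regions of the reverse pattern are highest at 8 h.

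Within the time course, the largest step between neighboring medians was from day 2 to day 4. The share of regions that had reached 50% of their XEN level was 0.484% at 16 h and 1.80% at day 1. It was 5.05% at day 2 and 46.9% at day 4. At day 4, 30 regions were still at or under 1 RPM and 109 were above their XEN value. The authors' clusters of binding dynamics were built from the same GATA6 values, so their counts are not independent of the rule. In them 1260 regions were Late (87.1%, against 33.6% of all regions) and 186 Early&Constant (12.9%, against 28.0%). Transient regions numbered 0, against 38.4% of all regions, where 3 regions would be 0.207%. The Early&Constant regions had higher medians at 16 h (1.89 against 0.812 RPM) and at day 2 (3.41 against 1.27 RPM) than the Late ones.

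Between day 2 and day 4 GATA6 increased at 1213 of the 1446 regions and decreased at 0 (edgeR quasi-likelihood test, adjusted p of 0.05 or less), against 23.2% of the regions tested that were called higher and 11.0% called lower. The median log2 fold change was 1.60 at the 1446 regions and 0.14 over all regions tested. Both day 4 libraries were above both day 2 libraries at 1396 regions (96.5%), against 41.0% of all regions. At the closed strong XEN regions above 1 RPM at 8 h this share was 72.3%. Between day 1 and day 2, 62 of the regions were called higher, against 0.629% of all, and 3 lower, against 2.0%, with a median log2 fold change of 0.41 next to -0.13 over all regions. The day 2 count rested on single libraries: it was 0 without the deeper day 2 library, 3 without the shallower day 2 library, 0 without the deeper day 1 library and 157 without the shallower day 1 library. All 1446 regions passed the read filter of this fit, which includes the XEN libraries in which they were chosen to be high. The fit also estimated the spread with the 8 h and XEN libraries. Since the rule required low GATA6 at 8 h and high GATA6 in XEN cells, these comparisons are not independent of it. Both comparisons share the day 2 libraries.

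The region in the Wars intron (chr12:108886416-108887830, tryptophanyl-tRNA synthetase gene) had GATA6 of 0.65 and 0.61 RPM in the deeper and shallower libraries at 8 h, 11.6 and 10.4 RPM at day 2, 26.3 and 36.0 RPM at day 4 and 48.4 and 44.9 RPM in XEN cells. The libraries of each condition lay clear of those of the other conditions. Its log2 fold change from day 2 to day 4 was 1.504 ± 0.27 (SE, adjusted p 4.0e-05, edgeR), and that from day 1 to day 2 was 1.85 ± 0.29 (adjusted p 0.0012, edgeR). The Thpo region (chr16:20763028-20764350), named for the gene of the platelet hormone thrombopoietin, was already at 16.3 and 14.4 RPM at day 2. It had 18.4 and 24.9 RPM at day 4 and 50.4 and 43.1 RPM in XEN cells. Its change from day 2 to day 4 was not past the threshold (log2 fold change 0.49 ± 0.27, adjusted p 0.16, edgeR).

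An intergenic region 70.4 kb from Dkk2 (chr3:132013797-132015573), a gene for a secreted modulator of Wnt signaling, was the fourth highest in XEN cells at 35.3 and 33.7 RPM. It had 1.67 and 1.80 RPM at day 2 and 4.82 and 3.23 RPM at day 4, so that its day 4 level was 11.7% of the XEN level. The region in an intron of Fhl2 (chr1:43152089-43153228), a LIM domain protein gene, had 1.28 and 1.80 RPM at day 2 and 12.7 and 9.25 RPM at day 4. Its log2 fold change was 2.84 ± 0.33 (adjusted p 1.8e-07, edgeR). The other 6 of the 10 highest regions in XEN cells, with 29.2 to 46.0 RPM, were near or in Klf8, Maml3, Spock1, Barhl2, Ntn4 and Ica1. All of the 10 were closed in ES cells. A nearest or host gene gives only the position of a region, and no expression was measured here.

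Regions also differed widely in how far day 4 approached XEN cells. Of the 1446 regions, 223 (15.4%) had under 25% of their XEN level at day 4, and 275 (19.0%) had 75% or more, while their XEN medians were alike (8.79 and 8.24 RPM). The regions under 25% had a median SOX17 of 1.44 RPM at day 4 and 45.7% were in the SOX17-bound class, against 9.70 RPM and 99.3% of those at 75% or more. The share with a high or mid GATA6 motif was 61.4% and 58.9%, and the share with closed chromatin 96.0% in both groups. OCT4 at day 2 was 0.449 and 1.47 RPM, and 0.448% and 46.9% were in the class of ectopic PTF binding, meaning PTF peaks that were absent before Dox. The FOX word was held by 9.87% and 17.1% of the windows, and the SOX word by 32.3% and 37.5%. Median GATA6 at day 2 was 0.631 and 2.86 RPM, day 4 input 0.537 and 0.989 RPM, and width 648 and 873 bases. Because the split used GATA6 at day 4, differences in other signals at the same regions are not independent of it.

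At 5 regions the day 4 level was lowest relative to XEN cells. The region in a Cntn4 intron (chr6:105917976-105918731, a neural cell adhesion gene) had 0.59 and 0.58 RPM at day 2, 0.83 and 0.85 RPM at day 4, and 13.7 and 10.5 RPM in XEN cells. The intergenic Xxylt1 region (chr16:30925962-30926530) had 1.16 and 0.51 RPM at day 4 and 15.3 and 9.67 RPM in XEN cells. The others of the lowest 5 lay in introns of Garem1, Mical3 and Igsf11. At these 5 regions the day 4 level was at most 7.24% of that in XEN cells. SOX17 increased at each of these 5 regions from day 4 to XEN cells, with log2 fold changes of 3.31 to 5.56 (edgeR, adjusted p 7.2e-13 or lower).

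At the high end, the intergenic Tnpo1 region (chr13:98945602-98946752) had 19.5 and 24.9 RPM at day 4 and 5.54 and 8.29 RPM in XEN cells. Its libraries at 8 h were at 1.09 and 0.52 RPM, so that only the mean of both met the limit. The other 4 were near or in Ank, Pdss2, Rab11a and Cyb5b, and at all 5 the day 4 level was at least 178% of that in XEN cells. SOX17 decreased at each of these 5 regions from day 4 to XEN cells, with log2 fold changes of -1.497 to -2.93 (edgeR, adjusted p 0.00014 or lower). Both sets of 5 regions had been picked on GATA6 in the same pair of conditions.

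SOX17 was not used to choose the regions, but GATA6 in the same XEN cells was. Its median was 0.466 RPM before Dox, 0.478 RPM at 8 h, 0.49998 RPM at 16 h, 0.951 RPM at day 1, 1.26 RPM at day 2, 4.72 RPM at day 4 and 6.07 RPM in XEN cells. Medians over all regions were 1.097 RPM at day 4 and 0.849 RPM in XEN cells. The SOX17-bound class held 85.6% of the regions (83.7% to 87.3%), 44.5% of all regions and 94.4% of the closed strong XEN regions above 1 RPM at 8 h. Between day 2 and day 4 SOX17 increased at 1123 of the regions and decreased at 0 (edgeR), against 24.7% and 14.0% of all regions tested, with a median log2 fold change of 1.66 next to 0.20 over all. Both day 4 libraries were above both day 2 libraries at 1289 regions (89.2%), against 37.3% of all and 66.4% of those closed regions.

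From day 4 to XEN cells, SOX17 increased at 479 of the regions, against 8.75% of all tested, and decreased at 101, against 21.4%. Since the regions were chosen for high GATA6 in the same XEN cells, this comparison is not independent of the rule. The read filter of the SOX17 fit also includes the XEN libraries. The median log2 fold change was 0.43, next to -0.30 over all regions. This split depended on scaling, since with TMM factors 779 regions were called higher and 49 lower, against 16.7% and 15.0% of all regions tested. The called count also varied with single libraries. Without the deeper XEN library the median log2 fold change was 0.43, next to -0.28 over all regions. Without the deeper day 4 library it was 0.40, next to -0.26. The highest SOX17 at day 4 was again at the Wars region, with 50.2 and 31.5 RPM. An intergenic region 39.4 kb from Fth1 (chr19:9940675-9941542), the ferritin heavy chain gene, had 34.1 RPM at day 4 and 36.0 and 32.9 RPM in XEN cells.

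**Figure D3:**
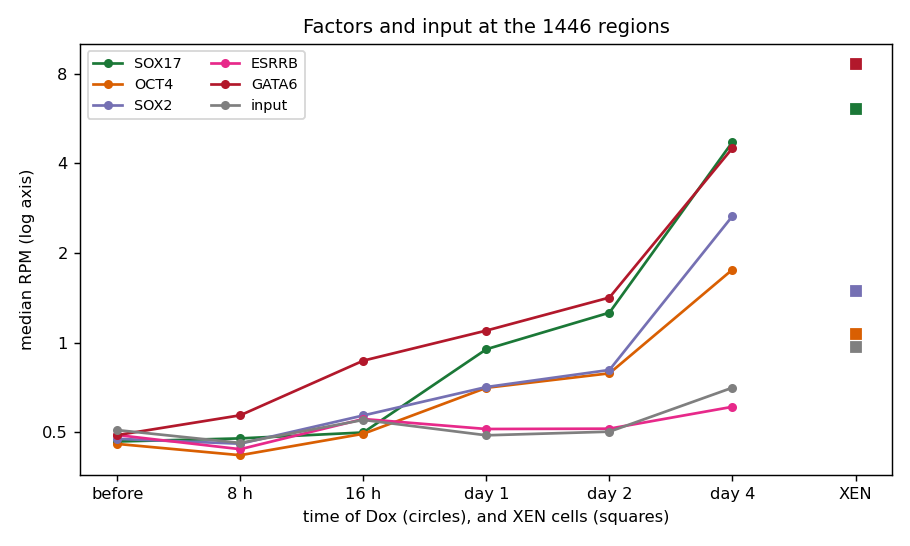
Median RPM (log axis) of 5 factors and input at the 1446 regions before Dox and at 5 times of Dox (circles joined by lines), and in XEN cells (squares, not measured for ESRRB). GATA6 and SOX17 reach 4.50 and 4.72 RPM at day 4, SOX2 2.66 RPM and OCT4 1.76 RPM, while ESRRB is at 0.610 RPM and input at 0.707 RPM.

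OCT4 and SOX2 medians were also higher late in the course. OCT4 had medians of 0.458 RPM before Dox, 0.790 RPM at day 2, 1.76 RPM at day 4 and 1.07 RPM in XEN cells, and SOX2 had 0.476, 0.811, 2.66 and 1.49 RPM. ESRRB was at 0.490 RPM before Dox and 0.610 RPM at day 4. Input was higher as well, with 0.509 RPM before Dox, 0.707 RPM at day 4 and 0.965 RPM in XEN cells. Its part in these levels was not tested. OCT4 in XEN cells came from 1 library. Before Dox and at day 4, the closed strong XEN regions above 1 RPM at 8 h had OCT4 medians of 1.24 and 3.36 RPM. Their SOX2 medians were 1.45 and 4.55 RPM. Over all regions, OCT4 medians were 0.703 and 0.756 RPM, and SOX2 medians 0.808 and 0.815 RPM. The class of PTF binding before Dox held 1 of the 1446 regions (20.8% of all regions), and ectopic PTF binding 311 (21.5%). The latter share was 16.6% of all regions, 43.2% of the other strong XEN regions and 54.3% of the closed ones among these. The 311 regions had higher medians than the 1134 without PTFs for GATA6 at day 2 (3.60 against 1.15 RPM) and SOX17 at day 2 (3.98 against 0.987 RPM). These classes are given as a description.

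The highest OCT4 at day 2 was 14.2 RPM at an intergenic region 12.9 kb from Arhgap29 (chr3:121939204-121940716), where GATA6 was 10.7 RPM at day 2, 16.6 RPM at day 4 and 11.0 RPM in XEN cells. Regions near Cachd1, Thpo and Pdgfc were also among the highest, and these 4 regions were Early&Constant in the authors' clusters.

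With Oct4 siRNA, GATA6 and SOX17 were higher at these regions at day 2. The GATA6 median of each library was 2.28 and 2.92 RPM with control siRNA and 4.61 and 5.67 RPM with Oct4 siRNA, with no overlap. Over all regions the library medians were 1.45 and 1.81 RPM, and 1.49 and 1.89 RPM, which overlap. The median log2 ratio was 0.81 on the log2(RPM + 0.193) scale, and 1338 of 1446 regions (92.5%) were higher. Over all regions it was -0.0039, at the other strong XEN regions 0.18 and at the regions of the reverse pattern -0.71.

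By edgeR 514 of the 1446 regions increased and 0 decreased, against 6.64% and 4.10% of all regions tested. Both Oct4 siRNA libraries were above both control libraries at 1104 regions (76.3%), against 25.6% of all. At the closed strong XEN regions above 1 RPM at 8 h this share was 36.8%. The called count depended on single libraries. Median log2 fold changes were 0.98 and 0.70 without the deeper and the shallower Oct4 siRNA library, next to 0.15 and -0.18 over all regions. Without the deeper and the shallower control library they were 0.71 and 1.003, next to -0.18 and 0.17. With TMM factors 966 were called higher and 8 lower, against 15.5% and 12.9% of all regions tested. The filter left out 2 of the regions.

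SOX17 had library medians of 1.47 and 1.55 RPM with control siRNA and 3.001 and 5.53 RPM with Oct4 siRNA. SOX17 also differed over all regions, where the libraries had 0.795 and 0.825 RPM, and 0.904 and 1.67 RPM, so the shallower Oct4 siRNA library was high throughout. The median log2 ratio was 1.22, or 0.70 relative to the median of all regions. By edgeR 201 of the regions increased, against 2.71% of all tested, and 0 decreased, against 0.00859%. Both Oct4 siRNA libraries were above both controls at 1206 regions (83.4%), against 43.7% of all. At the closed strong XEN regions above 1 RPM at 8 h this share was 72.6%. The called count depended on single libraries. Without the deeper or the shallower Oct4 siRNA library the median log2 fold change was 1.72 or 0.82, next to 1.05 or 0.14 over all regions. Without the deeper or the shallower control library it was 1.30 or 1.37, next to 0.65 or 0.68. With TMM factors, under which the median over all regions moved from 0.61 to -0.02, 604 were called higher and 17 lower. Of all regions tested, 9.83% were then called higher and 8.60% lower.

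**Figure D4:**
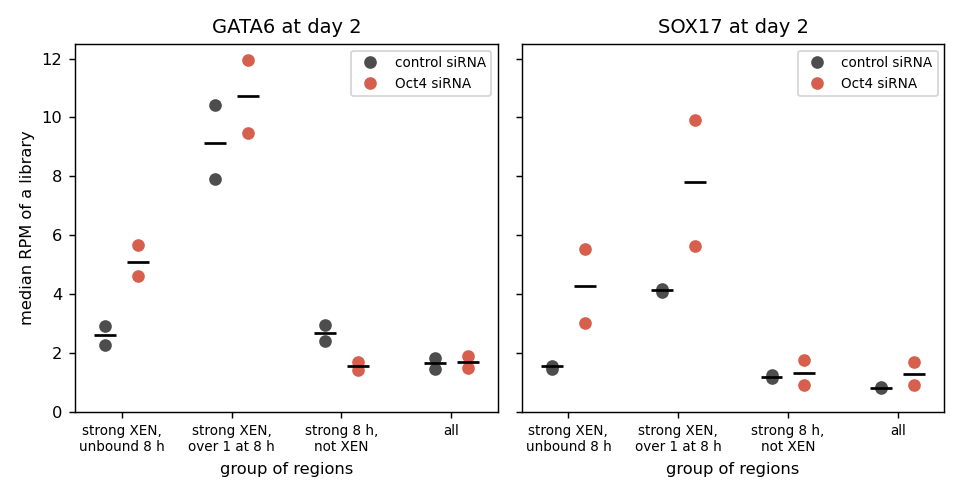
Median GATA6 (left) and SOX17 (right) of single libraries (points, RPM) at day 2 with control or Oct4 siRNA in 4 groups of regions, and the median of the pooled column (line). In the 1446 regions the Oct4 siRNA libraries lie above the controls for GATA6 (4.61 and 5.67 against 2.28 and 2.92 RPM) and SOX17 (3.001 and 5.53 against 1.47 and 1.55 RPM).

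Values at single regions were as follows, next to a median GATA6 log2 fold change of 0.86 at the members tested. These regions are examples and do not stand for the group, and no test compared one with another. At the Fhl2 region, GATA6 was 2.18 and 2.55 RPM with control siRNA and 13.6 and 15.8 RPM with Oct4 siRNA (log2 fold change 2.63 ± 0.36, adjusted p 1.3e-09, edgeR). SOX17 there was 1.34 and 2.01 RPM, and 6.29 and 12.3 RPM (2.47 ± 0.61, adjusted p 0.011, edgeR). At the Arhgap29 region, with high OCT4, GATA6 was 21.1 and 27.3 RPM with control siRNA and 23.1 and 26.0 RPM with Oct4 siRNA, which overlap (0.02 ± 0.33, adjusted p 0.98, edgeR). The adjusted p at the regions near Cachd1, Thpo and Pdgfc was 0.62 to 0.97 (edgeR).

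Gene lists of the endoderm lineages were searched for regions within the gene or 50 kb of it. The visceral endoderm list (19 genes) had 134 regions, of which 9 (6.72%) were among the 1446. The parietal endoderm list (12 genes) had 4 of 78 (5.13%), the PrE factor list (8 genes) 4 of 71 (5.63%) and the basement membrane list (10 genes) 1 of 146 (0.685%), against 3.41% of all regions. The pluripotency list (10 genes) had 0 of 84, where 3 regions would be 3.57%. No test was run on these shares, and the lists were chosen with earlier results of these data known. Most listed genes had no such region: it was found at 7 of 19 visceral endoderm, 4 of 12 parietal endoderm, 3 of 8 PrE factor and 1 of 10 basement membrane genes. Gata6, Sox17, Sox7, Cubn and Amn were among those without. Increases at the single regions below stand beside 83.9% of the 1446 regions called higher for GATA6 from day 2 to day 4.

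Near Foxa2, which encodes a forkhead factor of the visceral endoderm, an intergenic region 19.3 kb from the start site (chr2:148026255-148026910) had GATA6 of 0.24 and 0.35 RPM at 8 h, 0.74 and 0.85 RPM at day 2, 4.55 and 3.23 RPM at day 4 and 10.9 and 8.23 RPM in XEN cells. Its log2 fold change from day 2 to day 4 was 2.31 ± 0.38 (adjusted p 1.5e-05, edgeR). With siRNA it had 1.00 and 1.68 RPM in the controls and 3.63 and 5.27 RPM with Oct4 siRNA (1.72 ± 0.40, adjusted p 0.0012, edgeR). A neighbor at 18.4 kb (chr2:148026992-148027758) increased less by day 4 (1.19 ± 0.39, adjusted p 0.016, edgeR), and the siRNA libraries overlapped there. Foxa2 was the nearest gene of 6 of the 1446 regions, as were Igsf11 and Efnb2, which were chosen for this count after it was seen. The 6 regions nearest to Foxa2 had 6.01 to 14.4 RPM in XEN cells.

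Ttr encodes transthyretin, a carrier protein secreted by the visceral endoderm. The region at its start site (chr18:20664808-20665655) had GATA6 of 0.40 and 0.35 RPM at 8 h, 5.43 and 4.92 RPM at day 4 and 7.76 and 7.54 RPM in XEN cells. It increased from day 2 to day 4 (log2 fold change 2.66 ± 0.35, adjusted p 8.1e-07, edgeR). Around Dab2, an endocytic adaptor gene, 2 regions were found, and the one 39.6 kb away (chr15:6259733-6260526) had SOX17 of 19.3 and 16.7 RPM at day 4 and a log2 fold change in GATA6 of 2.36 ± 0.36 (adjusted p 5.7e-06, edgeR). An intron of Lrp2, which encodes the endocytic receptor megalin, had 10.5 and 11.6 RPM at day 4 (1.80 ± 0.31, adjusted p 2.7e-05, edgeR). Hnf4a (0.86 ± 0.32, adjusted p 0.033, edgeR) and Rbp4 (3.11 ± 0.41, adjusted p 7.2e-07, edgeR) each had 1 region that increased. The nearest genes of these regions by start site were R3hdml and Pde6c.

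Of the parietal endoderm genes, Plat, which encodes tissue plasminogen activator, had an intronic region (chr8:22761060-22762125) with 18.6 RPM in XEN cells. Its GATA6 increased from day 2 to day 4 (1.86 ± 0.33, adjusted p 4.3e-05, edgeR), and SOX17 was 22.8 RPM at day 4. Regions close to Thbd, Pth1r and Krt19 increased too, with log2 fold changes of 2.26, 1.101 and 2.92 (adjusted p 4.4e-05, 0.0093 and 7.0e-06, edgeR). The nearest genes of the Thbd and Krt19 regions by start site were Sstr4 and Krt13. Among the PrE factors, Gata4 had 2 such regions, 1 of them in an intron (chr14:63205166-63205920) with 6.26 and 6.37 RPM in XEN cells. Its GATA6 log2 fold change was 2.04 ± 0.35 (adjusted p 2.4e-05, edgeR). Pdgfra (1.72 ± 0.33, adjusted p 0.00011, edgeR) and Rarb (1.81 ± 0.40, adjusted p 0.00058, edgeR) had 1 intronic region each. The region for the basement membrane list lay in an exon of Nid2, the nidogen 2 gene, and increased by 0.93 ± 0.34 (adjusted p 0.032, edgeR).

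The regions were unevenly spread over the chromosomes, and so was the XEN input. At closed regions without GATA6 or SOX17 in XEN cells, XEN input relative to 8 h input and to the genome was above 1.1 on chromosomes 6, 8, 16, 19 and X (1.16 to 1.27). These 5 chromosomes held 437 of the 1446 regions (30.2%) and 21.01% of all regions. Of their regions 4.90% met the rule, against 3.01% elsewhere. After XEN RPM was divided by this ratio, 1378 regions met the rule, 1299 of them among the 1446, and the shares were 3.45% and 3.20%. On chromosome 8, day 4 input relative to 8 h input was raised as well, at 1.28. Of the 98 regions there, 92 were called higher for GATA6 and 88 for SOX17 from day 2 to day 4, against 1121 of 1348 and 1035 of 1347 on the others. On the chromosomes without raised XEN input the 1009 regions had medians of 4.67 RPM for GATA6 and 5.05 RPM for SOX17 at day 4, and 94.3% were closed.

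**Figure D5:**
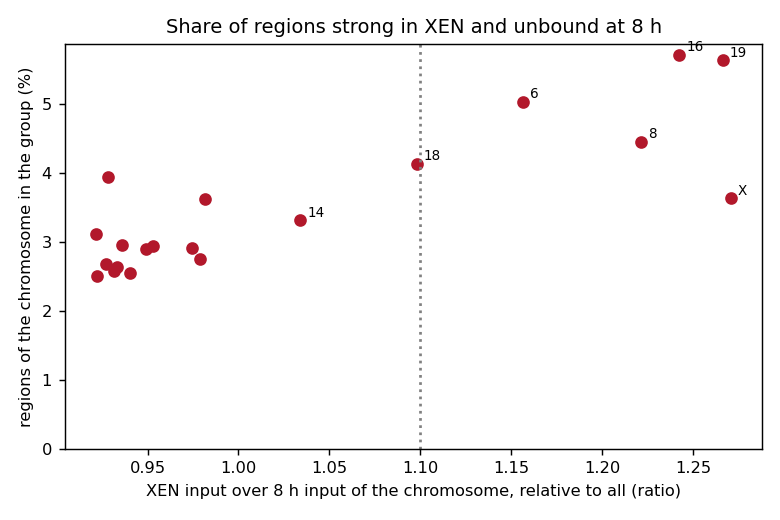
Share of each chromosome's regions among the 1446 (vertical axis, percent) against XEN input over 8 h input at unbound closed regions, relative to all (horizontal axis, ratio). Points are chromosomes other than Y, named where the ratio is above 1, and the dotted line marks 1.1. Chromosomes 16 and 19 have the highest shares, 5.71% and 5.64%, with ratios of 1.24 and 1.27.

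The thresholds cut through a continuous range. In XEN cells, the regions nearest to Ano4, Pde3a and Fam20a were just inside the limit, with 6.0048, 6.0048 and 6.0098 RPM, and those nearest to Ap1s3, Mib1 and Mphosph6 just outside, with 5.9974, 5.9974 and 5.9998 RPM. At 8 h, 3 regions just inside, nearest to Gcc1, Aak1 and Pigr, had 0.9993 RPM, and regions just outside, such as those nearest to Fam72a and Sall1, had 1.0002 RPM. The rule was met in all 4 libraries taken singly by 1040 of the regions (71.9%). Both XEN libraries reached 6 RPM at 1195 and both 8 h libraries stayed at or under 1 RPM at 1257.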

How the data were processed

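The authors sequenced ChIP and input libraries, and the submitters' processing notes name bcl2fastq, cutadapt, Bowtie2, SAMtools and the mm10 genome, without their order or versions. The authors deposited one table of GATA6 regions with a pooled RPM value per condition (reads scaled to depth), motif scores, and classes of binding, accessibility and histone marks. The authors deposited a best and a mean motif score per region, with classes. Of the 105 columns, 14 of other libraries and the authors' own differential test with DESeq2 were not used.

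The members and gene lists were chosen with earlier results of these data known. Since RPM values move in steps of 1 read, library depths and whole reads were recovered. At least 99.7% of the values of each 2-library column came out whole, and at least 99.3% had 1 solution, while a depth altered by 1% gave at most 0.32%. Recovered reads were tested over all regions with edgeR 4.0.16 in R 4.3.3 (quasi-likelihood test, Benjamini-Hochberg adjustment at 0.05, filterByExpr, library sizes as recovered). It called 9799 regions higher and 4661 lower for GATA6 from day 2 to day 4. The time course fits hold all conditions of an antibody, the siRNA fits 2 conditions. DESeq2 1.42.0, other scalings, no filter and leaving out each library were alternatives. Recovery and tests were tested on simulated data. Windows of 201 bases around the GATA6 summit came from GRCm38 and genes from GENCODE M21. Depth intervals cover counting error only, and those of shares are 95% Wilson intervals. The latter treat regions as independent draws, although 143 of the members lay within 10 kb of another member.

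Named regions were the 10 highest in XEN GATA6, the 5 highest in SOX17 at day 4 and in OCT4 at day 2, the 5 lowest and 5 highest in day 4 level relative to XEN cells, those at the thresholds, and up to 2 within 50 kb of each list gene. Some of these regions are not reported here. Python 3.11.15 with pandas 2.3.3, numpy 2.4.6, scipy 1.17.1 and matplotlib 3.10.9 was used.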

Additional observations from a re-analysis of the deposited data

How the results depend on the processing

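Of 102 alternatives, 40 left a result within its interval or within 1.5 times and 62 moved it. Only the siRNA log2 ratios could be recorded as reversed, and 0 of them were. With an XEN limit of 4 or 8 RPM the rule gave 2821 or 838 regions, and with an 8 h limit of 0.5 RPM 570. At 8 RPM or more in XEN cells, day 4 medians were 5.61 RPM for GATA6 and 5.85 RPM for SOX17, OCT4 at day 2 was 0.909 RPM, 96.4% were closed, 65.0% had a high or mid SOX17 motif and 90.6% were SOX17-bound. At 0.5 RPM or less at 8 h these values were 3.44, 3.83 and 0.534 RPM, 97.9%, 59.3% and 81.4%, with 55.3% for the GATA6 motif, 36.5% at 50% of the XEN level at day 4, and siRNA log2 ratios of 0.96 for GATA6 and 1.34 for SOX17. Means in place of medians were 5.30, 5.97 and 1.16 RPM for GATA6, SOX17 and OCT4, and 3.795, 3.91 and 0.282 RPM after input was subtracted. The share at 25% or more of the XEN level was 84.6% and at 75% or more 19.0%. High motifs only were held by 21.02% (GATA6) and 31.0% (SOX17), and any motif by 94.2% and 85.8%. A pseudocount 10 times larger gave log2 ratios of 0.52 and 0.72, one 10 times smaller 0.86 and 1.32, and SOX17 relative to all regions 0.70.

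Regions called higher numbered 122 with TMM factors, 136 with DESeq2 size factors and 13 with DESeq2 for GATA6 from day 1 to day 2, 779, 810 and 302 for SOX17 from day 4 to XEN cells, and 604, 606 and 492 for SOX17 with Oct4 siRNA. For GATA6 with Oct4 siRNA they numbered 966 with TMM and 963 with DESeq2 size factors. Leaving out single libraries gave 0 to 157 for GATA6 from day 1 to day 2, 294 to 425 for SOX17 from day 4 to XEN cells, 146 to 342 for GATA6 with Oct4 siRNA and 0 to 1272 for SOX17 with Oct4 siRNA. The share of all regions called higher moved with these settings as well, and the cause was not tested. Without single libraries, 913 to 1129 regions were called for GATA6 and 927 to 1124 for SOX17 from day 2 to day 4. Chosen after seeing the data were reads minus 1, XEN RPM divided by the chromosome's relative input, the rule in all 4 libraries, and the regions on chromosomes without raised XEN input, where SOX17 at day 4 was 5.05 RPM. No paired analysis was possible because the recovered libraries carry no replicate numbers.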

Other observations

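In cells given control siRNA, GATA6 at these regions at day 2 had a median of 2.59 RPM, with library medians of 2.28 and 2.92 RPM. In the time course, the median at day 2 was 1.42 RPM, with library medians of 1.42 and 1.38 RPM. Over all regions the medians were 1.64 and 1.13 RPM. The share of regions at 50% of their XEN level or more was 25.9% with control siRNA, 54.1% with Oct4 siRNA and 5.05% at day 2 of the time course. These samples come from separate experiments, and the difference between them was not tested. By the study's methods, the siRNA cells were nucleofected and plated at once in Dox. Their libraries were sequenced with paired-end reads and those of the time course with single-end reads.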
